A study of Mus musculus with 3 samples.

Results

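The 36 genes described here encode enzymes, helper proteins, membrane proteins and proton pump subunits of the lysosome, and their mRNA was measured by RNA sequencing in macrophages sorted from the spleens of leukemic mice. They were chosen by the function of their products, with earlier results of these data known. Among them are 8 cathepsins together with legumain, 11 other hydrolases and 3 lumenal helper proteins. The others are 7 membrane proteins, 5 subunits of the proton pump, and Tfeb, a transcription factor. Each gene was found by its NCBI gene ID and had to reach 1 FPKM (fragments mapped to a gene, scaled to its length and to the library's depth) in at least 1 library. All 36 did, among 12961 genes that reached that level and 17615 genes listed in any library. Of the 36, 35 also reached the 5 FPKM that a call of higher or lower required, and Gla, which stayed at 4.50 FPKM or below, did not.

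There were 3 libraries, 1 for each group. All hosts were C57BL/6J mice aged 6 to 8 weeks that had been given 800000 acute myeloid leukemia cells carrying GFP and BFP, with no irradiation. These cells carried mM-CSF at a high level in the mM-CSF group, sM-CSF at a high level in the sM-CSF group, and neither in the control group. M-CSF, which the Csf1 gene encodes, keeps macrophages alive by signalling through its receptor CD115; what the prefixes m and s stand for is not given in the labels. Sorting took place at day 18 and kept spleen cells negative for GR1, intermediate for CD115 and positive for F4/80; the hosts kept their own marrow, and the labels do not say how many mice went into a library. With 1 library per group there was no replicate spread and no test between groups, so every difference below describes these 3 libraries.

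Lysosomes are acidic compartments in which material taken up by phagocytosis, endocytosis or autophagy is broken down. A rotary proton pump, the V-ATPase, acidifies the lumen, most of the enzymes work best at that low pH, and a coat of heavily glycosylated membrane proteins shields the cell from them. TFEB, when it enters the nucleus, binds a short palindromic element found in the promoters of many of these genes. In the spleen, macrophages rely on this machinery to digest aged red cells and dying leukocytes.

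Total estimated counts were between 8.57e+06 and 9.09e+06 per library, and the summed FPKM over all genes was 624289 in the mM-CSF library, 500018 in the sM-CSF library and 452400 in the control library. Macrophage surface genes were present throughout: Csf1r, the M-CSF receptor, was at 222, 149 and 268 FPKM in the mM-CSF, sM-CSF and control libraries, and Adgre1, which encodes F4/80, at 67.5, 65.5 and 101 FPKM. Of the 8 macrophage surface markers, 5 lay below control in the mM-CSF library and 3 above it. In the sM-CSF library 7 lay below control and 1 above it. Transcripts of other cells were present too, and none of the measured marker genes was listed at 0 in a library. The marker lists were chosen with earlier results of these data known. The 10 neutrophil and granule markers summed to 1063 FPKM in the mM-CSF library, 204 in the sM-CSF library and 193 in the control library. The 6 plasma cell markers summed to 4389, 1450 and 1395 FPKM in the same order, with Jchain, the joining chain of antibodies, at 3301, 1072 and 1008 FPKM and Mzb1 at 612, 191 and 174 FPKM. The 7 B cell markers summed to 2634, 2441 and 1284 FPKM, with the receptor chains Cd79a at 1117, 958 and 468 FPKM and Cd79b at 918, 634 and 322 FPKM. These were the 2 called higher in mM-CSF against control, where 8.97% of all genes were. Of the B cell markers 1 was called lower, where 15.1% of all genes were, and 5 of 7 lay below sM-CSF in the mM-CSF library. The 7 erythroid markers summed to 3611, 3205 and 4300 FPKM, most of it globin, with Hba-a1 at 1990.22, 1659 and 2336 FPKM and Hbb-bs at 1532, 1446 and 1769 FPKM. In RNA from many cells at once, fewer cells of a type and less RNA per cell cannot be told apart.

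Lysosomal mRNA was abundant in all 3 libraries. The 36 genes took 1.56% of all estimated counts in the mM-CSF library, 1.25% in the sM-CSF library and 1.45% in the control library, and of the summed FPKM they took 1.08%, 1.10% and 1.43%, so that mM-CSF was highest by counts and control by FPKM. In the same libraries 18, 19 and 19 of them lay in the top 10% of measured genes by FPKM. The median gene of the group stood at 67.3, 61.2 and 71.5 FPKM in the mM-CSF, sM-CSF and control libraries, against 9.86, 11.7 and 11.9 FPKM over all measured genes. Psap, the precursor of the saposins that help lipid-degrading enzymes, was the highest member in the mM-CSF library (1160.25 FPKM) and in the control library (1054.65 FPKM). In the sM-CSF library Laptm5, a lysosomal membrane protein of blood cells, stood at 923.02 FPKM and Psap at 922.52 FPKM, which their counting error does not separate. Gla, the alpha-galactosidase, was lowest everywhere, at 3.98, 2.92 and 4.50 FPKM. Within each library the 36 levels thus covered a 234-fold to 316-fold range.

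**Figure D1:**
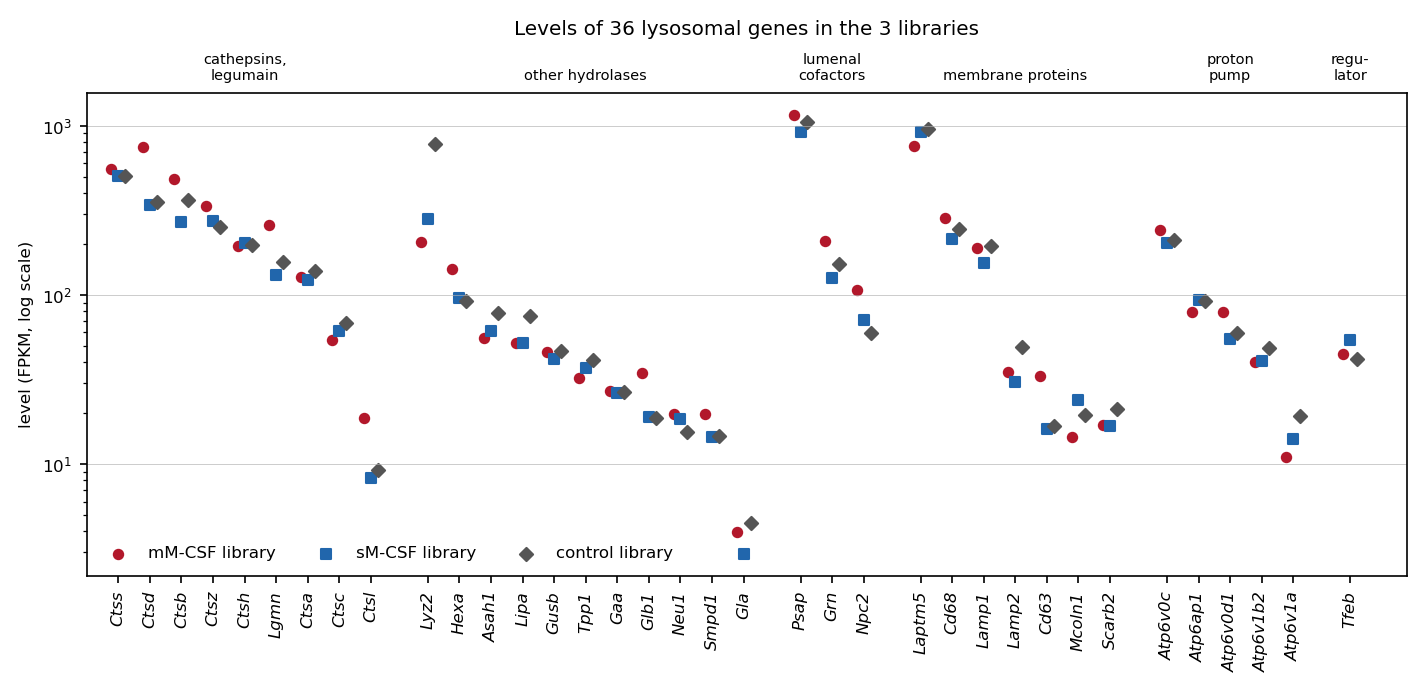
FPKM of the 36 lysosomal genes on a log axis, grouped by role, with 1 point for the mM-CSF library, 1 for the sM-CSF library and 1 for the control library. Points of a gene mostly lie close together, since the highest library was under 1.5 times the lowest for 22 of the 36 genes, and Ctsd, Ctsl, Cd63 and Lyz2 were the 4 genes with a spread of 2-fold or more.

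The largest share of the group's counts belonged to the cathepsins with legumain: 0.672%, 0.443% and 0.503% of all counts in the mM-CSF, sM-CSF and control libraries. The lumenal helper proteins took 0.389%, 0.296% and 0.335%, the membrane proteins 0.287%, 0.308% and 0.334%, the other hydrolases 0.131%, 0.126% and 0.190%, and the pump subunits 0.0732%, 0.0691% and 0.0747%. By counts the cathepsin share was thus highest in the mM-CSF library, but as a share of summed FPKM it was 0.444%, 0.382% and 0.453%, highest in control. The shares of the membrane proteins and other hydrolases were highest in the control library by counts and by FPKM. Gene by gene, 18 members were highest in the mM-CSF library, 4 in the sM-CSF library (Ctsh, Mcoln1, Atp6ap1 and Tfeb) and 14 in the control library. In TPM these counts became 7, 3 and 26, and under median-of-ratios scaling 21, 2 and 13. On FPKM the lowest library was mM-CSF for 11 members, sM-CSF for 18 and control for 7.

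**Figure D2:**
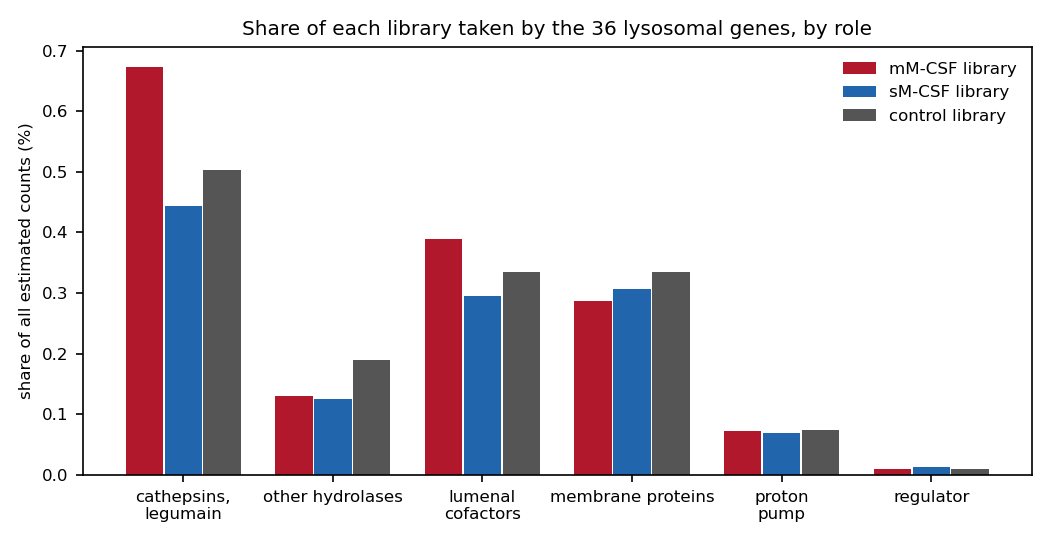
Percent of each library's estimated counts taken by each role of lysosomal gene, as bars from 0 for the mM-CSF, sM-CSF and control libraries. The cathepsin bar stands at 0.672% in the mM-CSF library against 0.443% in the sM-CSF library and 0.503% in the control library, while as shares of summed FPKM these are 0.444%, 0.382% and 0.453%, with control highest; the pump bars stand at 0.0732%, 0.0691% and 0.0747%.

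The promoters of several members carry the element to which TFEB binds, and stretches around it are shown because they mark which of the genes below hold it. Windows of 300 bases, 250 before and 50 after the annotated start, were taken from RefSeq (build GRCm38.p6), where 32 of the 36 members had an entry; Asah1, Atp6v1b2, Ctsb and Ctsh had none. The letters TCACGTGA, the core of the element, were searched, and so were CACGTG, the E-box that lies inside that core; both read the same on either strand. In the stretches below, written 5′ to 3′ on the strand of the gene, capitals mark each CACGTG.

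Ctsd: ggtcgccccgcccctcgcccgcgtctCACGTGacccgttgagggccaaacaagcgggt
Ctsa: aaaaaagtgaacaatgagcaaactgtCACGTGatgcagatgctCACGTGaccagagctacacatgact
Gla: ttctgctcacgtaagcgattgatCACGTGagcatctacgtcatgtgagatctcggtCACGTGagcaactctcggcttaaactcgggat
Mcoln1: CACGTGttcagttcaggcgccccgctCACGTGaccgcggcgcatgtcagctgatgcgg
Atp6v0d1: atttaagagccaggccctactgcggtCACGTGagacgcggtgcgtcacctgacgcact
Atp6v1a: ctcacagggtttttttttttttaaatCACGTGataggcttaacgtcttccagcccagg
Lamp1: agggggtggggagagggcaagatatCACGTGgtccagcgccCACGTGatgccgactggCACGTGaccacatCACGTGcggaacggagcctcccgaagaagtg

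Ctsd (chr7:142387894-142387951, minus strand) has 1 core, whose first base lies 99 bases before the start, and an E-box farther out, at 245 bases, that the stretch leaves out. Ctsa (chr2:164833735-164833802, plus strand) and Gla (chrX:134601168-134601255, minus strand) have 2 cores each. Mcoln1 (chr8:3500448-3500505, plus strand) has 1 core and, next to it, 1 E-box without the full core. The V-ATPase genes Atp6v0d1 (chr8:105566036-105566093, minus strand) and Atp6v1a (chr16:44139359-44139416, minus strand) have 1 core each, 4 and 132 bases before the start. Lamp1 (chr8:13159075-13159176, plus strand) has no full core but 4 E-boxes. The core was thus present in 6 members, or 18.8% of the 32, against 2.22% of the 10144 measured genes with a window and 0.974% of all 32851 windows. CACGTG was present in 11 members, or 34.4%, the others being Ctsl, Gaa, Glb1, Lamp1 and Lgmn, against 11.6% of measured genes and 7.15% of all windows. The longer palindrome, with a G before the core and a C after it, was in 0 of the 32 members. It was in 0.799% of measured genes and 0.326% of all windows, too rare for 32 members to show a difference.

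Genes with the core did not share 1 direction. In the mM-CSF library against the control library their differences ran from −0.76 for Atp6v1a to 1.07 for Ctsd, on the scale of log2(FPKM + 1) used for every difference here, which understates the change of low genes. The median difference was −0.13 over the 6 genes with the core and 0.13 over the 26 without it. In the sM-CSF library against the control library the medians were −0.15 and −0.10, and in the mM-CSF library against the sM-CSF library 0.20 and 0.22, with and without the core. A match of letters is a description of the window and was not tested against binding.

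Compared with the control library, the mM-CSF library had more cathepsin D mRNA and less lysozyme mRNA. In FPKM these were the highest and the lowest of the 36 differences. A gene was called higher or lower when its difference was at least 1 in size, a 2-fold change, with 5 FPKM or more in the higher library. In mM-CSF against control, 1 of the 35 members past the minimum was called higher, Ctsd, where 8.97% of 9789 genes were, and 1 was called lower, Lyz2, where 15.1% were. Over the 36 members the median difference was 0.06 and 19 lay above 0, against a median of −0.07 and 46.3% above 0 over all measured genes. Differences within 0.5 of 0 were seen for 26 of the 36 members (72.2%) and for 46.5% of all measured genes. The median of the 36 was −0.01 once a trend with gene length, described below, was removed. It was −0.40 when FPKM was rescaled to TPM, which fixes each library's sum, and that rescaling moved the median of all measured genes to −0.50.

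In sM-CSF against control, 0 of the 35 members were called higher, where 0.785% of 9683 genes were, and 1 was called lower, again Lyz2, where 1.63% were. The median difference of the members was −0.14 with 10 of 36 above 0, against 0.02 and 52.1% over all measured genes. Differences within 0.5 of 0 were seen for 33 of the 36 (91.7%) and for 83.9% of all measured genes. Centring on the 8 macrophage surface markers turned that median to 0.24, with 30 of 36 above 0. Those markers had a median difference of −0.38 themselves and ran from −0.84 to 0.30. In mM-CSF against control they ran from −1.20 to 1.36, with a median of −0.15. In mM-CSF against sM-CSF, 3 of 35 members were called higher (Ctsd, Ctsl and Cd63), where 3.79% of 9574 genes were, and 0 were called lower, where 8.73% were. Here the median difference of the members was 0.17 with 24 of 36 above 0, against −0.11 and 42.8% over all measured genes; it was −0.15 in TPM and −0.10 after centring on the macrophage markers. Under these 2 scalings none of the 3 calls held, with Ctsd at 0.82 and 0.87, Ctsl at 0.81 in both and Cd63 at 0.71 and 0.74. The comparisons with control share the control library, and those involving mM-CSF share the mM-CSF library, so they are not independent of each other.

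**Figure D3:**
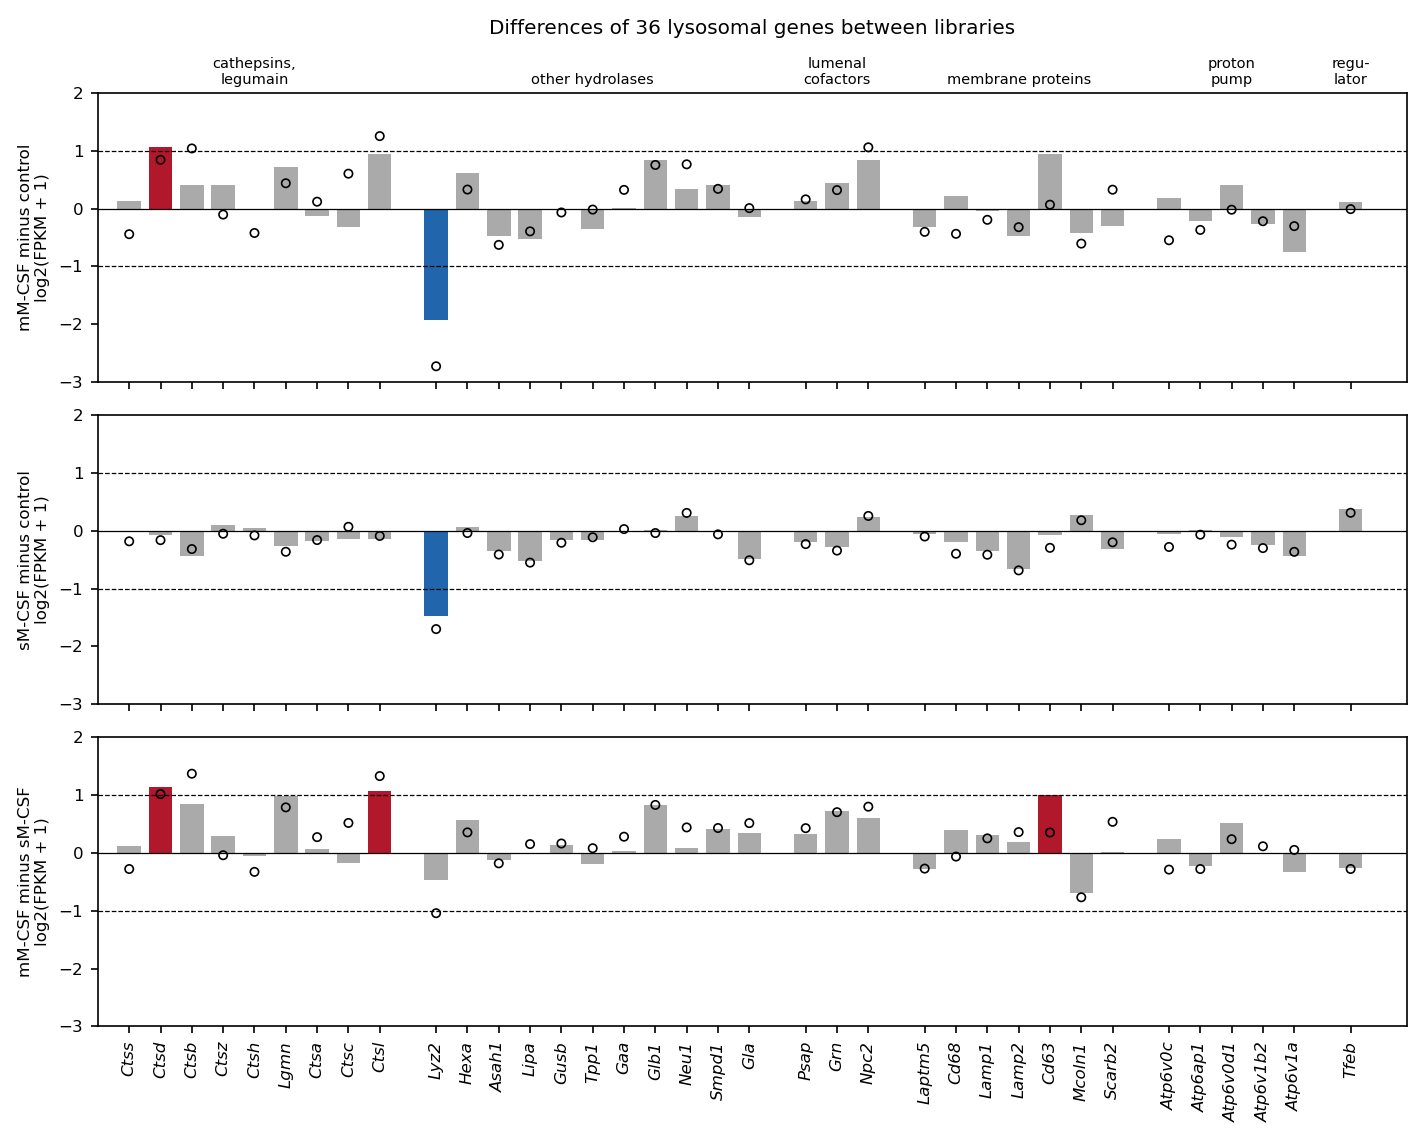
Difference in log2(FPKM + 1) of each of the 36 genes, by role, for mM-CSF against control, sM-CSF against control and mM-CSF against sM-CSF (bars; red, called higher; blue, called lower; grey, not called; dashed lines at −1 and 1; open circles show the value after a trend with gene length was removed). The called genes are Ctsd and Lyz2 in the first panel, Lyz2 in the second, and Ctsd, Ctsl and Cd63 in the third; after the trend was removed, Ctsd lay within the limits in the first panel and Cd63 in the third.

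Over all genes the differences followed gene length. Spearman's rho of the difference with gene length was −0.69 over 9213 genes and −0.25 over the 36 members in mM-CSF against control, −0.45 and −0.24 in sM-CSF against control, and −0.65 and −0.14 in mM-CSF against sM-CSF; points within a comparison share their libraries. Shorter genes thus tended to be higher in the mM-CSF library. A running median of the difference over 20 bins of gene length was subtracted to give a second value for each gene. On that value, 3 members were called higher in mM-CSF against control (Ctsb, Ctsl and Npc2, with 2.93% of all genes) and Lyz2 lower (with 7.92%), while in mM-CSF against sM-CSF the calls were Ctsb, Ctsd and Ctsl higher (1.91%) and Lyz2 lower (4.75%). In sM-CSF against control Lyz2 alone was called, lower (1.81%), and 0 members were called higher (0.485%).

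**Figure D4:**
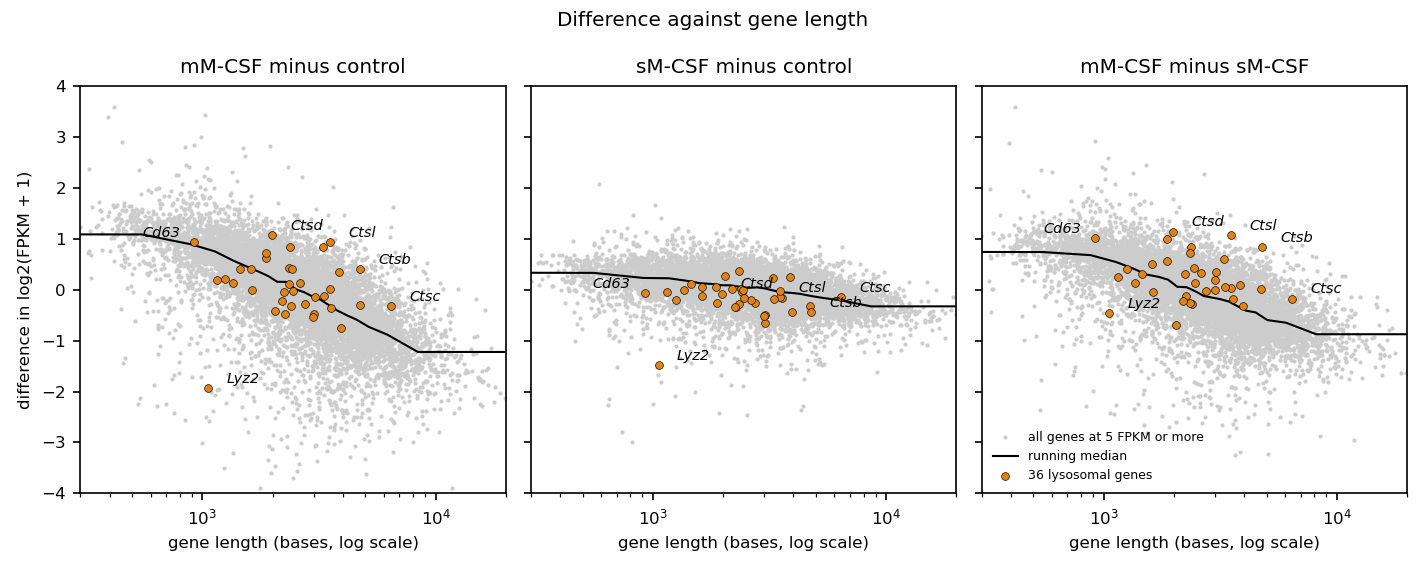
Difference in log2(FPKM + 1) against gene length in bases (log axis) for genes averaging 5 FPKM or more (grey), with the running median over 20 length bins (line) and the 36 lysosomal genes (orange), in 3 panels for mM-CSF against control, sM-CSF against control and mM-CSF against sM-CSF. The axes leave out the few genes outside the drawn range; the grey cloud slopes down with length (rho −0.69, −0.45 and −0.65) and Lyz2 lies far below the line in the first 2 panels.

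Among the cathepsins and legumain, which cut proteins inside the lysosome, Ctsd, Ctsl, Lgmn and Ctsb had the largest differences between mM-CSF and sM-CSF, and all 4 were highest in mM-CSF. Ctsd, the main aspartic protease, stood at 747 FPKM in the mM-CSF library, 338 in the sM-CSF library and 356 in the control library. Its share of counts was 2.11 times that of the control library (95% interval 2.05 to 2.18) and 2.22 times that of the sM-CSF library (2.15 to 2.29). These intervals are exact for the counts and cover counting error only. The difference of Ctsd from control was 1.07, or 0.84 with the length trend removed and 0.60 in TPM, both short of the size required. The neutrophil and granule markers and the plasma cell markers, whose sums are given above, also were higher in the mM-CSF library, and their part in the cathepsin differences was not tested.

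Ctsl, a cysteine protease, gave the same order at a lower level, with 18.6 FPKM in the mM-CSF library, 8.30 in the sM-CSF library and 9.22 in the control library. Its difference was 0.94 from control, 1.08 from sM-CSF and −0.14 between sM-CSF and control. Lgmn, the asparagine-specific protease that processes other cathepsins, stood at 259.8 FPKM in the mM-CSF library against 130.3 FPKM in sM-CSF and 157 FPKM in control. The difference of Lgmn from sM-CSF, 0.99, was just inside the limit for a call, as was that of Ctsl from control.

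Ctsb, a cysteine protease with carboxypeptidase activity, stood at 483 FPKM in the mM-CSF library, 268 in the sM-CSF library and 365 in the control library. It thus lay above control in 1 library and below it in the other, with differences of 0.41 and −0.44, and its share of counts in mM-CSF was 1.81 times that in sM-CSF (1.77 to 1.85). In TPM the difference of Ctsb from control in the mM-CSF library was −0.06. Ctsb is a long gene of 4756 bases, and with the length trend removed its difference was 1.04 from control and 1.37 from sM-CSF, past the size required.

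The other members of this role differed little in FPKM. Ctsz, a carboxypeptidase, was at 335, 272 and 252 FPKM in the mM-CSF, sM-CSF and control libraries, a difference of 0.41 between mM-CSF and control that was −0.06 in TPM and −0.10 with the length trend removed. Ctss, which trims the invariant chain of MHC class II, was at 553, 507 and 506 FPKM, and Ctsh, an aminopeptidase, at 196, 203 and 197 FPKM. In FPKM the differences of both stayed within 0.13 of 0 in every comparison. In mM-CSF against control, Ctss was at −0.34 in TPM and −0.44 with the length trend removed, and Ctsh at −0.47 and −0.42. Ctsa, which protects beta-galactosidase and neuraminidase, was at 128, 122 and 139 FPKM. Ctsc, which activates granule serine proteases, ran the other way, with 54.2 FPKM in the mM-CSF library, 61.3 in the sM-CSF library and 67.8 in the control library. Its difference in mM-CSF against control was −0.32, and 0.60 with the length trend removed, on a fitted gene length that itself differed between libraries. The median of the 9 genes was 0.41 in mM-CSF against control, −0.14 in sM-CSF against control and 0.30 in mM-CSF against sM-CSF; in TPM the first became −0.06 and the third −0.02, and centring on macrophage markers turned the second to 0.24.

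Among the other hydrolases, Lyz2 had the largest difference of all 36 genes in both comparisons with control. Lyz2 encodes lysozyme M, which cleaves bacterial cell walls and is made by macrophages, monocytes and neutrophils. It stood at 205 FPKM in the mM-CSF library, 282 in the sM-CSF library and 784 in the control library. Its share of counts was 3.81 times lower in mM-CSF than in control (3.62 to 4.01) and 2.78 times lower in sM-CSF than in control (2.66 to 2.91). The differences were −1.93 and −1.47, and every scaling tried kept both calls. Between mM-CSF and sM-CSF the difference was −0.46, or −1.04 with the length trend removed.

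Lyz2 counts were in part not whole, as happens where reads are divided between similar genes, so its level is uncertain. The close copy Lyz1, chosen after its values were seen, was at 13.0, 14.9 and 30.2 FPKM in the mM-CSF, sM-CSF and control libraries, which is the same order. Markers of non-classical monocytes also lay below control. Their 7 genes summed to 312 FPKM in the mM-CSF library, 432 in the sM-CSF library and 1038 in the control library. Of the 7, 6 in mM-CSF and 5 in sM-CSF were called lower against control, where 15.1% and 1.63% of all genes were. The marker list was chosen with earlier results of these data known, so these counts are no independent check. Ace was at 4.09, 26.5 and 132 FPKM and Nr4a1 at 21.7, 94.8 and 266 FPKM in the mM-CSF, sM-CSF and control libraries. Unlike Lyz2, 2 of the 7 were higher in mM-CSF than in sM-CSF. The part of these markers in the Lyz2 difference was not tested. Neutrophil and granule markers ran the other way, with 8 of 10 called higher in mM-CSF against control, where 8.97% of all genes were. Elane, neutrophil elastase, was at 397, 51.7 and 54.5 FPKM and Mpo, myeloperoxidase, at 166, 62.3 and 63.5 FPKM.

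Of the enzymes that strip sugars from glycolipids and glycoproteins, Glb1 and Hexa had the largest differences in mM-CSF against control, short of the size of a call. Glb1, the beta-galactosidase, stood at 34.4 FPKM in the mM-CSF library, 18.9 in the sM-CSF library and 18.7 in the control library, a difference of 0.85 from control. Hexa, the alpha chain of hexosaminidase, was at 142, 96.1 and 92.0 FPKM, a difference of 0.62. Glb1 and Hexa differed by 0.01 and 0.06 between sM-CSF and control, within counting error. Neu1, a sialidase, was at 19.8, 18.5 and 15.4 FPKM and Gusb, the beta-glucuronidase, at 46.0, 41.7 and 46.8 FPKM. Gaa, which releases glucose from glycogen, was level at 26.9, 26.4 and 26.8 FPKM.

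Of 3 enzymes of lipid breakdown, 2 were highest in the control library in FPKM. Lipa, the acid lipase that frees cholesterol from lipoprotein esters, stood at 51.6 FPKM in the mM-CSF library, 52.0 in the sM-CSF library and 75.2 in the control library, giving −0.53 and −0.52 against control. Asah1, the acid ceramidase, was at 55.7, 61.1 and 77.8 FPKM, giving −0.47 and −0.34. Smpd1, the acid sphingomyelinase that supplies ceramide, differed from them, with 19.7 FPKM in mM-CSF against 14.5 and 14.7 FPKM in sM-CSF and control. Tpp1, a tripeptidyl peptidase, was at 32.1, 36.8 and 41.3 FPKM. Over the 11 hydrolases the median difference was −0.02 in mM-CSF against control, −0.16 in sM-CSF against control and 0.09 in mM-CSF against sM-CSF. The first was −0.48 in TPM and between 0.01 and 0.12 under median-of-ratios scaling, with the length trend removed and after centring on macrophage markers. That centring turned the second to 0.21 and the third to −0.18, and the third was −0.22 in TPM.

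All 3 lumenal helper proteins were higher in mM-CSF than in either other library in FPKM, short of the size of a call, although in TPM 1 of 3 was above control. Npc2, which hands cholesterol to the exporter NPC1, stood at 107 FPKM in the mM-CSF library, 70.7 in the sM-CSF library and 59.8 in the control library, a difference of 0.83 from control that grew to 1.06 once the length trend was removed. Grn, the precursor of granulins needed for normal lysosomal function, was at 207, 125 and 153 FPKM. Psap was at 1160.25, 922.52 and 1054.65 FPKM, so in FPKM Grn and Psap lay above control in mM-CSF and below it in sM-CSF; in TPM both lay below control in both libraries. Their mM-CSF to sM-CSF ratios of count shares were 1.66 (1.58 to 1.75) for Grn and 1.25 (1.23 to 1.28) for Psap. The median of the 3 was 0.43 in mM-CSF against control, −0.19 in sM-CSF against control and 0.59 in mM-CSF against sM-CSF; it became −0.03 in TPM in the first comparison and 0.18 after centring on macrophage markers in the second.

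Of the 7 membrane proteins, 5 lay below control in the mM-CSF library, and 4 did under median-of-ratios scaling or after centring on macrophage markers. Cd63, a tetraspanin of late endosomes and lysosomes, stood at 33.3 FPKM in the mM-CSF library, 16.1 in the sM-CSF library and 16.9 in the control library. The difference of 1.01 from sM-CSF was called, but Cd63 is the shortest member at 920 bases, and with the length trend removed the difference was 0.35. Against control it was 0.94, and 0.07 with the trend removed. Cd68, a macrophage sialomucin of the lysosomal membrane, was at 284, 214 and 245 FPKM in the mM-CSF, sM-CSF and control libraries.

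Lamp1 and Lamp2 are the main coat glycoproteins of the lysosomal membrane. Lamp1, with its 4 E-boxes, stood at 189.7 FPKM in the mM-CSF library, 154 in the sM-CSF library and 195 in the control library. Lamp2, needed for fusion with autophagosomes, was at 35.2, 30.7 and 49.1 FPKM, giving −0.47 and −0.66 against control. Scarb2, the carrier of glucocerebrosidase, was at 17.1, 16.8 and 21.3 FPKM, and Laptm5 at 763, 923 and 955 FPKM.

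Mcoln1, the calcium channel through which lysosomes release calcium, had its own order: 14.4 FPKM in the mM-CSF library, 23.8 in the sM-CSF library and 19.6 in the control library. Its differences were −0.42 in mM-CSF against control, 0.27 in sM-CSF against control and −0.69 in mM-CSF against sM-CSF, the last being −1.02 in TPM. Over the 7 membrane proteins the median was −0.30, −0.19 and 0.19 in these comparisons. The second turned to 0.18 after centring on macrophage markers, and the third to −0.12 in TPM and −0.08 after that centring.

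None of the 5 proton pump subunits was called in a comparison of FPKM values, while in TPM Atp6v1a was called lower in mM-CSF against control. Atp6v1a, the catalytic subunit that splits ATP, stood at 11.0 FPKM in the mM-CSF library, 14.1 in the sM-CSF library and 19.3 in the control library, a difference of −0.76 in mM-CSF against control, or −0.30 with the length trend removed. Atp6v1b2, its partner in the ATP-splitting ring, was at 40.2, 40.7 and 48.7 FPKM. Atp6v0d1, which couples that ring to the membrane sector, was at 78.8, 54.9 and 59.5 FPKM, with differences of 0.51 from sM-CSF and 0.40 from control in mM-CSF, the last being −0.06 in TPM and −0.02 with the length trend removed. Atp6v0c, the proton-carrying ring subunit, was at 241, 204 and 212 FPKM, and Atp6ap1, an accessory subunit, at 79.1, 92.7 and 92.0 FPKM.

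Per length, Atp6v0c stood 21.9 times above Atp6v1a in the mM-CSF library, 14.5 times in the sM-CSF library and 11.0 times in the control library. Atp6v0c is 1151 bases long and Atp6v1a 3946, so this ratio moves with the length trend. The median over the 5 subunits was −0.22, −0.11 and −0.02 in mM-CSF against control, sM-CSF against control and mM-CSF against sM-CSF. In FPKM the 12 further subunits described below had medians above 0 in all 3 comparisons. The second became 0.26 after centring on macrophage markers, and the third 0.12 under median-of-ratios scaling and 0.05 with the length trend removed. Tfeb itself stood at 44.9 FPKM in the mM-CSF library, 54.0 in the sM-CSF library and 41.6 in the control library, with a difference of 0.37 in sM-CSF against control that stayed above 0 under every scaling tried. In mM-CSF against control it was 0.11, and −0.35 in TPM and −0.01 with the length trend removed.

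Other genes of the lysosome were taken from lists chosen by function, with earlier results of these data known. The lists held 111 genes in all, of which 106 were measured. In mM-CSF against control 12 were called higher and 7 lower. In sM-CSF against control 0 were called in either direction, and in mM-CSF against sM-CSF 7 were higher and 2 lower. With the length trend removed these became 4 higher and 2 lower, 0 and 0, and 4 and 0. The shares of all genes called higher and lower were 8.97% and 15.1% in mM-CSF against control. They were 0.785% and 1.63% in sM-CSF against control and 3.79% and 8.73% in mM-CSF against sM-CSF. With the trend removed the shares were 2.93% and 7.92%, 0.485% and 1.81%, and 1.91% and 4.75% in these 3 comparisons. The median differences of the 106 genes were −0.01, −0.01 and 0.02, against −0.07, 0.02 and −0.11 over all measured genes.

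Proteases and degradative enzymes supplied 5 of the genes called higher in mM-CSF. Ctsf, a cysteine cathepsin, stood at 13.3 FPKM in the mM-CSF library, 3.17 in the sM-CSF library and 4.58 in the control library, giving 1.36 against control and 1.78 against sM-CSF, both of which remained past the size required with the length trend removed. Pla2g15, a lysosomal phospholipase, was at 67.7, 31.9 and 33.2 FPKM, giving 1.01 and 1.06, likewise past it with the trend removed. The carboxypeptidase Cpq was at 13.1, 7.44 and 6.00 FPKM, the nuclease Dnase2a at 79.1, 45.7 and 38.6 FPKM. Ctsw, a cathepsin of cytotoxic lymphocytes, was at 86.1, 49.6 and 29.6 FPKM. Cpq, Dnase2a and Ctsw were no longer called with the trend removed, at 0.78, 0.61 and 0.99 against control. Of the 7 T cell markers 6 were measured and summed to 452, 377 and 216 FPKM. In mM-CSF against control 4 were called higher, where 8.97% of all genes were, and 1 lower, where 15.1% were. The 1 lower was Cd4, named after its values were seen, at 28.7, 82.4 and 62.8 FPKM. Cd3d, at 73.5, 39.1 and 18.9 FPKM, and Cd3e, at 71.5, 59.5 and 28.8 FPKM, had the order of Ctsw, as did Cd3g and Lck. Cd4 did not have that order. Neither did Cd8a, named after its values were seen, at 21.1, 28.3 and 19.4 FPKM in the mM-CSF, sM-CSF and control libraries. The part of T cell markers in the Ctsw difference was not tested.

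Lower in mM-CSF were 2 enzymes or their helpers, both long genes. Gm2a, the activator that presents the GM2 ganglioside to hexosaminidase, stood at 112 FPKM in the mM-CSF library, 232 in the sM-CSF library and 248 in the control library, in contrast to Hexa. The difference of Gm2a was −1.15 from control and −1.05 from sM-CSF, and −0.62 in both with the length trend removed. The sulfatase Ids was at 7.12, 15.6 and 21.9 FPKM. Conventional dendritic cell markers also were lower in the mM-CSF library. Against control 7 of 7 were called lower, where 15.1% of all genes were, and against sM-CSF 7 of 7, where 8.73% were. The 7 markers summed to 54.2, 277 and 323 FPKM, with Zbtb46 at 1.46, 13.1 and 20.1 FPKM and Flt3 at 6.25, 42.0 and 46.0 FPKM. Their part in the Gm2a and Ids differences was not tested.

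Of the further membrane proteins, 0 of 21 were called higher in any comparison. The shares of all genes called higher were 8.97% in mM-CSF against control, 0.785% in sM-CSF against control and 3.79% in mM-CSF against sM-CSF. In mM-CSF against control 2 of the 21 were called lower, where 15.1% of all genes were. These were the nucleoside transporter Slc29a3 (9.31, 17.7 and 24.6 FPKM in mM-CSF, sM-CSF and control) and Tmem106b (6.94, 12.9 and 16.1 FPKM). Gnptab, which makes the mannose 6-phosphate tag on lysosomal enzymes, was the only 1 of 11 sorting genes called. It was lower in mM-CSF against control, where 15.1% of all genes were, at 9.38, 17.3 and 22.9 FPKM. These 3 are long genes, and their differences from control were −0.57, −0.24 and −0.47 once the length trend was taken out.

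Among 12 further pump subunits, 1 was called higher in mM-CSF against control, where 8.97% of all genes were. This was Atp6v1f, a small subunit of the ATP-splitting sector, at 285 FPKM in mM-CSF, 151 in sM-CSF and 128 in control. The difference of Atp6v1f from control was 1.15, and 0.12 with the length trend removed. Over the 12 subunits the median was 0.41 in mM-CSF against control, 0.11 in sM-CSF against control and 0.32 in mM-CSF against sM-CSF. With the length trend removed these medians were −0.13, −0.04 and −0.01. Regulators at the lysosomal surface divided by length in the same way. The small Ragulator subunits Lamtor4 (92.3, 41.2 and 32.2 FPKM) and Lamtor2 (124, 72.9 and 59.3 FPKM) were higher in mM-CSF than in control. The long kinase gene Mtor (3.23, 7.41 and 9.83 FPKM) and Fnip2 (1.78, 2.74 and 5.60 FPKM) were lower. With the trend removed none of these 4 kept a difference of 1, and Lamtor2 came to −0.01.

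Tfec, a relative of Tfeb expressed in macrophages, stood at 8.96 FPKM in the mM-CSF library, 3.02 in the sM-CSF library and 4.16 in the control library. The difference from sM-CSF was 1.31, and 1.08 with the length trend removed, on counts of 137 and 48.

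Of the 8 inhibitors of cathepsins, 4 were called higher in mM-CSF than in control, where 8.97% of all genes were. With the length trend removed 1 was higher, Stfa1 (with 2.93% of all genes). On that value 1 was lower, Cst3, chosen after its values were seen (with 7.92%). Cst3, the secreted cystatin C, was at 629, 654 and 740 FPKM, a difference of −0.23 in mM-CSF against control, or −1.17 with the trend removed. Cstb, which blocks cysteine cathepsins, stood at 81.3 FPKM in the mM-CSF library, 38.9 in the sM-CSF library and 35.6 in the control library, a difference of 1.17 that was 0.13 with the length trend removed. Serpinb6a, an inhibitor of cathepsin G, was at 110, 46.9 and 41.5 FPKM, and Serpinb1a, an inhibitor of neutrophil elastase, at 46.0, 38.3 and 21.0 FPKM. Stfa1, one of several near-identical stefins, stood at 11.1 FPKM in the mM-CSF library and was listed at 0 in the others. Over the 5 inhibitors that were above 0 in every library the median difference was 1.10 in mM-CSF against control, 0.13 in sM-CSF against control and 0.55 in mM-CSF against sM-CSF. The neutrophil and granule markers given above also were higher in the mM-CSF library, and their part in this was not tested.

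**Figure D5:**
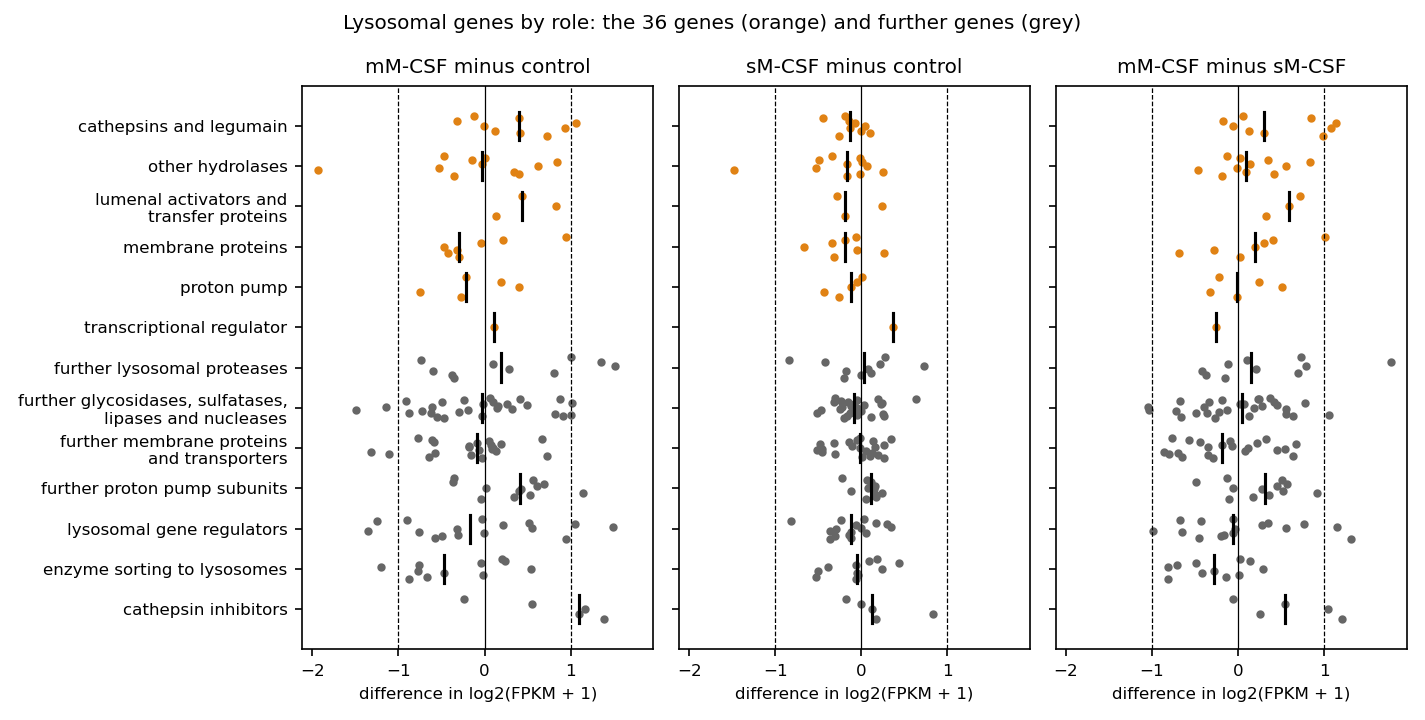
Difference in log2(FPKM + 1) of the 36 members (orange) and the further lysosomal genes (grey) by role, with a black bar at each role's median, for mM-CSF against control, sM-CSF against control and mM-CSF against sM-CSF; genes listed at 0 in any library are not drawn. In sM-CSF against control 94 of the 103 further genes drawn lay within 0.5 of 0, and in mM-CSF against control 50 did. Of all measured genes, 83.9% and 46.5% did in these comparisons. Medians of single roles flip sign with the scaling, the cathepsin median of 0.41 in mM-CSF against control being −0.06 in TPM.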

How the data were processed

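Sorted splenic macrophages from 3 groups of leukemic mice were sequenced on a BGISEQ-500, 1 library per group from 1 ug of total RNA, per the labels' protocols. Per the file headers, each deposited table lists genes with their length, the expected count and the FPKM that the authors derived. Bowtie2 (version 2.2.5) and RSEM are named in the submitters' processing notes. The build and annotation behind the tables are not given in the sources used here. The expected counts, as deposited, were whole within 0.005 reads for 76.7%, 75.9% and 75.7% of listed genes in the mM-CSF, sM-CSF and control libraries. Counts that were not whole occurred in 9 of the 36 members (Ctsa, Ctsb, Ctsc, Ctsl, Gla, Glb1, Neu1, Lyz2 and Scarb2), whose values are less certain. The fitted gene length of Ctsc and Lamp2 differed by over 3% between libraries, which moves their FPKM.

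Libraries were grouped by their titles. Genes absent from a table were set to 0. Differences were taken in log2(FPKM + 1) and called at a size of 1 or more with at least 5 FPKM in the higher library. With 1 library per group no test was run. Ratios of count shares carry exact conditional (Clopper-Pearson) 95% intervals, which cover counting error only, and a floor of 3 counts equals 0.350, 0.335 and 0.330 CPM in the mM-CSF, sM-CSF and control libraries. The length trend is the running median over 20 bins of gene length among genes averaging 5 FPKM or more.

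Members and gene lists were chosen with earlier results of these data known. Named genes were all 36 members, the called genes of each further list (up to 4 per list and comparison with the largest difference) and the first 2 genes of each marker list. Lyz1, Cst3, Cd4, Cd8a, Cd3g and Lck were named after their values were seen. Symbols and promoter windows came from RefSeq tables of GRCm38.p6, which were used only for names and sequence; 54 listed genes had no symbol. Alternatives were a pseudocount of 0.1, minimums of 1 and 20 FPKM, TPM, median-of-ratios scaling, the length trend removed, centring on macrophage surface markers, a 1.5-fold rule, and leaving out Lyz2. The calling step was tested on simulated libraries. Python 3.11.15, numpy 2.4.6, pandas 2.3.3, scipy 1.17.1 and matplotlib 3.10.9 were used.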

Additional observations from a re-analysis of the deposited data

Results flagged for a closer look

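For 7 of the 36 genes the mM-CSF and sM-CSF libraries lay on opposite sides of the control library, each beyond its 95% counting interval. The same held for 4.44% of the 12961 measured genes and for 5.43% of the 9910 genes that average at least as much FPKM as the lowest member; the intervals narrow with the count, and most of the 36 genes are abundant. The difference between these contrasts equals the difference of the mM-CSF from the sM-CSF library, it was not tested for want of replicates, and both contrasts share the control library. Of the proteases, Ctsd lay 1.07 above control in mM-CSF and 0.08 below it in sM-CSF (1.14 between mM-CSF and sM-CSF). Lgmn gave 0.73 and −0.26 (0.99 between them), and Ctsb gave 0.41 and −0.44 (0.85 between them). Of the lumenal proteins, Grn gave 0.43 and −0.29 (0.72 between them) and Psap 0.14 and −0.19 (0.33 between them). The membrane protein Cd68 gave 0.21 and −0.19 (0.40 between them). Mcoln1 alone ran the other way, with −0.42 in mM-CSF and 0.27 in sM-CSF (−0.69 between them).

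These positions relative to control depend on the scaling: in TPM, Ctsb, Psap, Grn and Cd68 lay below control in the mM-CSF library as well, at −0.06, −0.33, −0.03 and −0.25. After centring on macrophage surface markers, Ctsd, Lgmn, Psap, Grn and Cd68 lay above control in the sM-CSF library as well. In both scalings the difference between mM-CSF and sM-CSF kept its sign for all 7 genes, but it shrank to 0.01 in TPM and 0.06 after centring for Psap and to 0.08 and 0.13 for Cd68; with the length trend removed that of Cd68 was −0.06, and the other 6 kept theirs.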

How the results depend on the processing

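No paired analysis was possible because each group has 1 library. A minimum of 1 or 20 FPKM changed none of the member counts by over 1.5 times. Of members, 1 was higher in mM-CSF against control, and 2 with a pseudocount of 0.1, 0 in TPM, 3 each under median-of-ratios scaling, with the length trend removed and after centring on macrophage markers, and 7 at a 1.5-fold rule. The 1 lower became 2 in TPM and at 1.5-fold, and 0 without Lyz2. In sM-CSF against control, the 1 lower became 2 at 1.5-fold and 0 without Lyz2. In mM-CSF against sM-CSF, the 3 higher became 0 in TPM and after centring, and 8 at 1.5-fold; the 0 lower became 1 in TPM, 1 with the length trend removed and 1 at 1.5-fold. The median difference of members was 0.06 in mM-CSF against control, and −0.40 in TPM and 0.21 after centring. It was −0.14 in sM-CSF against control, and −0.28 in TPM and 0.24 after centring. It was 0.17 in mM-CSF against sM-CSF, and −0.15 in TPM, 0.30 under median-of-ratios scaling and −0.10 after centring. TPM shifted the median of all measured genes by −0.43, −0.13 and −0.30 in these comparisons, centring by 0.15, 0.38 and −0.27, and median-of-ratios scaling by 0.11 in the third. Lamtor2 in mM-CSF against control reversed to −0.0052 with the length trend removed. The cause of these changes was not tested.

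Over all genes, 878 were higher and 1480 lower in mM-CSF against control (37.2% of calls higher). These became 281 and 3406 in TPM (7.62%), 287 and 775 with the length trend removed (27.0%), 1249 and 1166 after centring (51.7%), and 2111 and 2682 at 1.5-fold; a minimum of 20 FPKM gave 663 and 654 (50.3%). In sM-CSF against control, 76 and 158 (32.5%) became 98 and 364 in TPM (21.2%), 47 and 175 with the length trend removed (21.2%), 323 and 68 after centring (82.6%), 33 and 69 at 20 FPKM, 152 and 248 at 1 FPKM, and 407 and 562 at 1.5-fold. In mM-CSF against sM-CSF, 363 and 836 (30.3%) became 182 and 2174 in TPM (7.72%), 584 and 613 under median-of-ratios scaling (48.8%), 183 and 455 with the length trend removed, 140 and 1574 after centring (8.17%), 243 and 349 at 20 FPKM (41.0%), and 1440 and 2119 at 1.5-fold. The depth of 8.57e+06 to 9.09e+06 counts sets the counting intervals, the widest among members being those of Gla, on as few as 80 counts.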
